A study of Mus musculus with 8 samples.

Results

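The proteasome genes were compared between MYC-positive and MYC-negative germinal center (GC) B cells of the mouse spleen. Members were the genes whose symbol starts with Psma, Psmb, Psmc, Psmd or Psme followed by a digit and that had a probe set annotated to that 1 symbol. Each was represented by its probe set with the highest mean log2 signal. This gave 44 of the 18194 genes named on the array. The rule itself uses no measured difference, but the proteasome genes were chosen with earlier results of these data known. The 44 symbols included 2 that only resemble subunits, Psmc3ip and Psme3ip1. They are interacting proteins and were kept out of the counts below, which leaves 42 proteasome genes. Psme2, the partner of Psme1, is not among them and was not analysed here, because its probe set is annotated to Psme2b as well.

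RNA came from 8 sorted samples, 4 MYC-positive and 4 MYC-negative, in 4 stated pairs that join 1 sample of each group. All donors were 8-week-old mice of a GFPMYC knock-in line on the C57BL6 background, immunized with sheep red blood cells (SRBC) and used on day 12, so both groups carry the GFPMYC allele and a control without it was not analysed here. Magnetic beads were used to enrich splenic B cells, the GC gate was PNAhi/CD95hi, and that gate was divided by GFP, which reports the MYC protein. The labels describe the division as made within each mouse in one place and from pooled spleens in another, so whether a pair is 1 animal is not settled and p-values may measure only the spread between these samples. Amplified cDNA from 5 to 20 ng of RNA was hybridised to Affymetrix mouse expression arrays. Values are array signals on a linear scale, which have no unit and can be compared between arrays for 1 probe set but not between probe sets.

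The proteasome degrades proteins that carry ubiquitin. Its 20S core is a barrel of outer alpha rings and inner beta rings whose catalytic sites face the lumen, and the 19S particle on its ends, made of a base with ATPases and a lid with a deubiquitinase, binds, unfolds and admits substrates. In lymphocytes and in cells exposed to interferon-gamma, Psmb8, Psmb9 and Psmb10 can take the place of the constitutive catalytic subunits Psmb5, Psmb6 and Psmb7 to form the immunoproteasome, which together with the activator of Psme1 and Psme2 shapes the peptides presented on MHC class I. GC B cells divide rapidly, and MYC, a transcription factor that binds the E-box CACGTG as a dimer with MAX, is present in only a fraction of them.

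Short promoter stretches of 5 members are shown, because they place the motifs of MYC and of NRF1 (encoded by Nfe2l1, an activator of proteasome genes) beside the genes whose levels follow. They come from RefSeq promoter windows of the GRCm38.p6 build, which run from 250 bases before to 50 bases after the start of the gene, and each reads 5′ to 3′ on the strand of its gene. The motif is in capitals: the E-box CACGTG in Psma4, Psme3 and Psmb10, and the antioxidant response element core TGACNNNGC in Psmb5 and Psmb6. The stretches lie at chr9:54950689-54950754 on the plus strand for Psma4, chr11:101316139-101316204 on the plus strand for Psme3, chr8:105938473-105938538 on the minus strand for Psmb10, chr14:54618004-54618072 on the minus strand for Psmb5 and chr11:70525318-70525356 on the plus strand for Psmb6. All are upstream of the annotated start, with the motif beginning 140, 44, 116, 47 and 9 bases before it in that order.
Psma4: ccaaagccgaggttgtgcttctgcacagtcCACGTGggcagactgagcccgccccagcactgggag
Psme3: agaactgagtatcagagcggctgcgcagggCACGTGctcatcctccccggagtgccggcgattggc
Psmb10: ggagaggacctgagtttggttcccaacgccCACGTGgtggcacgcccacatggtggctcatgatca
Psmb5: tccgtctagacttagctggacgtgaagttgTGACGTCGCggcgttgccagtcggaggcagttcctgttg
Psmb6: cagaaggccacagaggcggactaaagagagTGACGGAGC

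RefSeq windows matched 37 of the 44 members, and 35 of these were proteasome genes. The E-box was found in the window of 4 of the 35 (11.4%: Psma4, Psme3, Psmb10 and the chaperone Psmd9), against 8.09% of all genes with a window. None of the 14 base and lid genes with a window held it, and 1 of 12 core genes did. The antioxidant response element core was in 6 of 35 genes (17.1%: Psmb5, Psmb6, Psmc6, Psmd12, Psmd9 and Psme4) against 14.0% of all genes. Of these Psmd9 and Psme4, and of the E-box genes Psmb10 and Psmd9, were not called higher in the test described below. The CCAAT box was in 7 of 12 core genes (58.3%) and in 14 of all 35 (40%), against 41.1% of all genes. Each motif was searched on both strands, and a match of one is not by itself a match of another. These are matches of letters in a short window, and binding was not measured.

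The sort separated the arrays by Myc transcript. Myc signal in pairs 1 to 4, the order used throughout, was 33.3, 156, 105 and 137 in the MYC-negative and 361, 932, 644 and 891 in the MYC-positive arrays, a log2 difference of 2.83 (SE 0.28, adjusted p = 0.000694). Every difference is the MYC-positive value less the MYC-negative value in log2 units, fitted with limma and the pair as a block. P-values carry a Benjamini-Hochberg adjustment for the 11754 genes that passed a filter on mean signal. A gene was called higher or lower at an adjusted p under 0.05. Of the genes tested, 11.2% (1319) were called higher and 11.5% (1352) lower, and in 11.1% (1310) all MYC-positive arrays were above all MYC-negative arrays.

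Some B cell and GC genes and some markers of macrophages and monocytes differed between the groups. B cell and GC genes such as Ms4a1 and Bcl6 were bright on all arrays. In each list 2 of 5 tested genes were lower in MYC-positive cells (Pax5 and Cd22, and Mybl1 and Fas), against 11.5% of all genes. Of 15 macrophage and monocyte markers 12 were tested. Of these, 8 were called higher, among them Csf1r and Vcam1, against 11.2% of all genes, and Apoe was lower (-1.87, log2). Csf1r and Vcam1 were each at or below the filter level of 18.7 on 3 MYC-negative arrays and passed the filter through the MYC-positive arrays, where Csf1r ran from 74.9 to 1915 and Vcam1 from 174 to 1221, so no size of difference is given. C1qa and C1qc, also among the 8, were below that level on all 4 MYC-negative arrays and passed in the same way. The count of 8 therefore depends in part on the filter. The summed signal of all 15 macrophage and monocyte markers ran from 1130 to 2395 in MYC-negative and from 2040 to 11023 in MYC-positive arrays. It was highest in pair 1, while Itgam stayed at or below 3.53 on every array. T cell, dendritic cell and granulocyte markers gave 6 tested genes with none called. The summed granulocyte signal was nevertheless 586 on the MYC-positive array of pair 4, against 9.52 to 68.9 on the other 7 arrays, with S100a9, which did not pass the filter, at 423 there and at most 4.68 elsewhere. Of 4 plasma cell genes tested only Sdc1 was called higher. Whether RNA of other cells takes part in the proteasome differences was not tested. In sorted bulk samples, fewer cells of a type and less RNA per cell cannot be told apart.

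Many proteasome genes, most of them of the core, base and lid, were higher in MYC-positive GC B cells. Of the 4 immunoproteasome genes 0 passed the test, a count that does not set them apart from all genes. Of the 42 proteasome genes, 40 passed the filter, each with a mean above the filter level in both groups. In limma's test 23 of the 40 (57.5%) were called higher, against 11.2% of all genes, and 0 were called lower, against 11.5%. Without adjustment 31 were higher and 0 lower at a p under 0.05. The difference was above 0 in 38 of 40 genes and in all 4 pairs for 30 of them, and in 17 all MYC-positive arrays were above all MYC-negative ones, against 11.1% of all genes. The median difference was 0.48, against -0.06 over all genes tested. By pair the median over these 40 genes was 0.64, 0.34, 0.55 and 0.55.

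The number of calls varied with the pairs and with the variance model. It was 2 of the 40 without pair 1 (Psmd7 and Psme3) and 6 without pair 2 (Psma6, Psma7, Psmb5, Psmb6, Psmd7 and Psme3). It was 16 without pair 3 and 28 without pair 4. Over all genes the higher calls in the same order were 3.43% (403), 3.87%, 10.1% and 14.8%. Without the pair as a block the member count was 13, of which 12 were among the 23, against 8.98% of all genes. Without an intensity trend in the variance it was 4 of the 40, against 6.26% of all genes. Nearly all members are bright on these arrays, and 38 of the 40 had a mean signal of at least 1000. Among the 4221 genes that bright, a threshold set after the values were seen, 748 (17.7%) were called higher and the median difference was 0.05. The remaining member genes, Psma8 (a testis-specific alpha subunit) and Psmb11 (the catalytic subunit of thymic epithelium), did not exceed a signal of 19.8 on any array and were not tested.

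**Figure D1:**
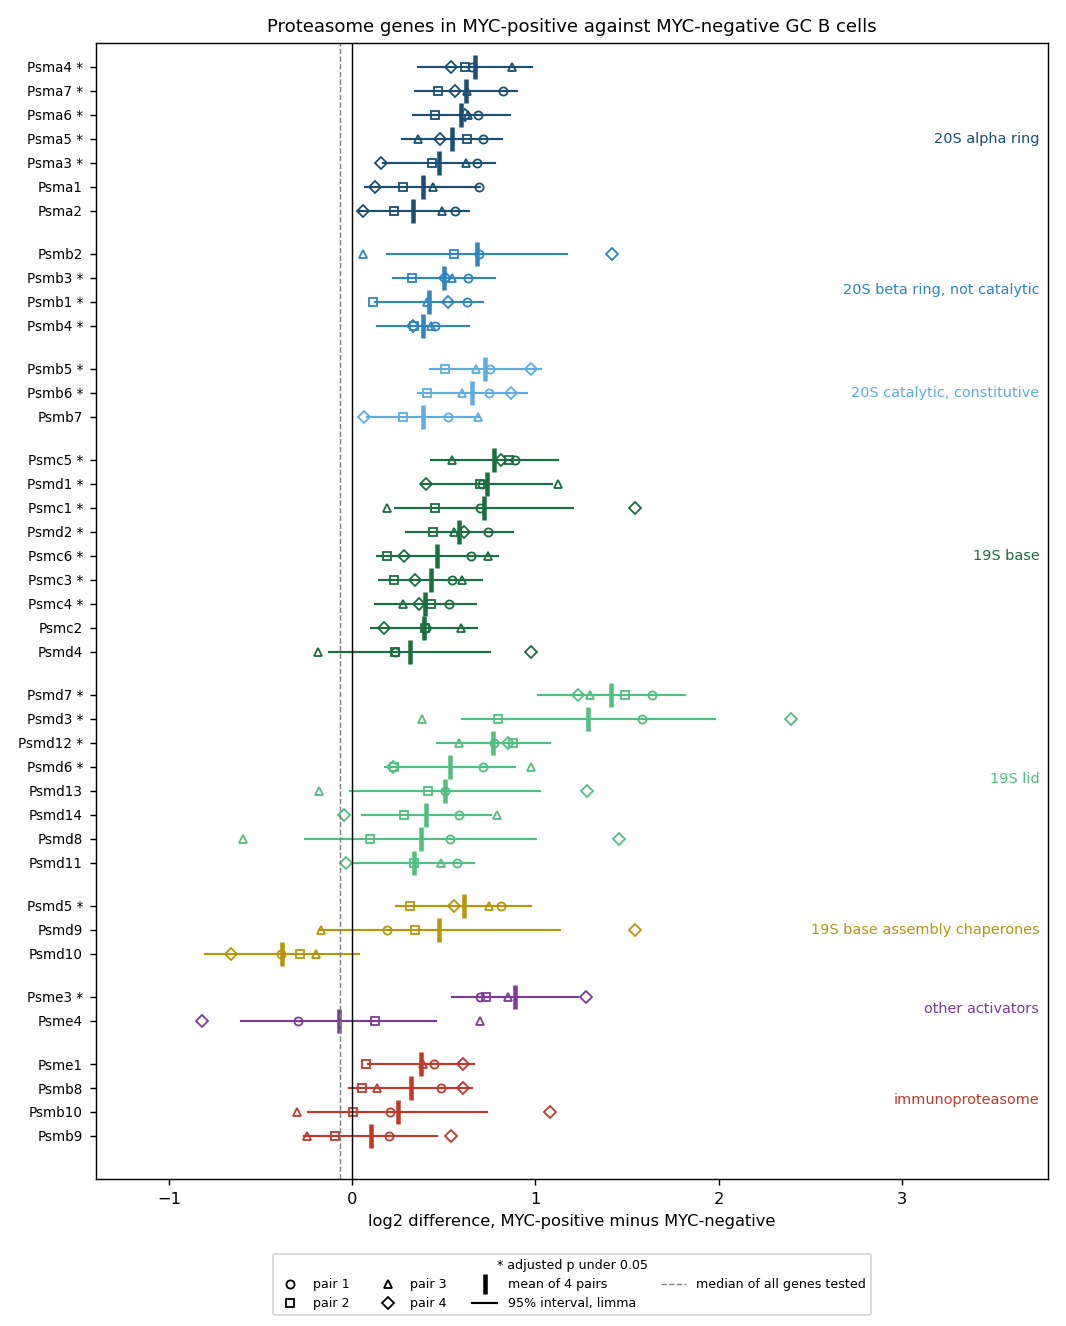
Log2 difference between MYC-positive and MYC-negative arrays (horizontal axis) for each of the 40 tested proteasome genes, with the 95% interval from limma as a bar, small marks for the 4 pairs and an asterisk at an adjusted p under 0.05. All but Psmd10 and Psme4 lie above 0, and the immunoproteasome genes lie between 0.10 and 0.38.

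The scale of the difference depends on how the arrays are brought together. The deposited signals were scaled to a common trimmed mean, but the median signal per array ran from 41.4 to 55.8 in MYC-negative and from 28.2 to 39.7 in MYC-positive arrays. Centring each array on the median of its probe sets moved the median difference of all genes up by 0.44. The higher calls rose to 37 of 40 proteasome genes and to 27.3% of all genes, in place of 11.2%. Among called genes of either direction, 85.4% were then higher in place of 49.4%. Quantile normalization moved the median difference of all genes up by 0.15 and gave 20 proteasome calls, 19 of them among the 23. It called 15.2% of all genes higher, which was 57.2% of the called genes. Relative to the median of all genes, the median proteasome gene stood 0.54 higher as deposited and 0.28 higher after quantile normalization, and the median of the 4 immunoproteasome genes 0.35 and 0.09. Centring adds the same constant to every gene and cannot alter these gaps.

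The alpha ring, which forms the gate of the barrel, had 7 tested genes. Of these, 5 were called higher (71.4%), against 11.2% of all genes. The differences ran from 0.33 to 0.67, and all 7 were positive in every pair. Psma4 had the largest difference. Its signal was 2419, 2771, 2264 and 3222 in MYC-negative and 3810.5, 4245, 4144 and 4686 in MYC-positive arrays. The groups did not overlap, and the difference was 0.67 (SE 0.14, adjusted p = 0.0102). The smallest was that of Psma2, whose signal was 4579, 5859, 4911 and 8234 in MYC-negative and 6753, 6858, 6911 and 8578 in MYC-positive arrays. The MYC-negative array of pair 4 was above 3 of the MYC-positive arrays, and the difference of 0.33 (SE 0.13, adjusted p = 0.108) did not pass. Psma7, Psma6, Psma5 and Psma3 were called higher, with differences of 0.62, 0.60, 0.55 and 0.47. With the mean over the probe sets of each gene, Psma7 kept its call, and Psma6, Psma5 and Psma3 lost it at 0.07, 0.11 and 0.06 (adjusted p = 0.778, 0.840 and 0.847). Psma1 gave 0.39 (SE 0.14, adjusted p = 0.0786). In pair 4 the differences of Psma1 and Psma2 were 0.13 and 0.06, and without pair 4 both passed, at 0.47 (adjusted p = 0.0187) and 0.43 (adjusted p = 0.0280). Psma1 turned to -0.22 (adjusted p = 0.521) when averaged over its probe sets, as its 3 dimmer ones gave -0.78, -0.15 and -0.33.

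The beta subunits without catalytic sites, Psmb1 to Psmb4, gave 3 calls of 4 (75%), against 11.2% of all genes called higher. Psmb2, a subunit of the inner ring, showed signals of 1631, 1893, 1999 and 1317 in MYC-negative and 2640.4, 2782, 2083 and 3522 in MYC-positive arrays. All MYC-positive arrays were above all MYC-negative arrays, but the pairs were unequal, from 0.06 in pair 3 to 1.42 in pair 4, and the difference was 0.68 (SE 0.22, adjusted p = 0.0517). It passed in 8 of the 13 other ways of processing the data, with adjusted p-values from 0.00375 to 0.0472 in those, and without pair 4 it was 0.44. Psmb4 had the smallest difference, with signals of 6937, 7356, 7902 and 10118 in MYC-negative and 9477, 9288, 10646 and 12731 in MYC-positive arrays. It was higher in every pair by 0.45, 0.34, 0.43 and 0.33, although the MYC-negative array of pair 4 exceeded 2 of the MYC-positive arrays, and the difference was 0.39 (SE 0.11, adjusted p = 0.0358). The call of Psmb4 was lost in 8 of the 13 other ways of processing. Psmb3 and Psmb1 were called at 0.50 and 0.42, and lost the call in 4 and 10 of the 13. Among these, Psmb1 was not called without pair 4 (adjusted p = 0.0527), without pair 3 (0.0821) or when averaged over its probe sets, where it gave 0.14 (adjusted p = 0.628).

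The 3 constitutive catalytic subunits are the active sites of the standard proteasome. Psmb5, the chymotrypsin-like site and the target of bortezomib, had signals of 3861, 4417, 3304 and 4338 in MYC-negative and 6492, 6284, 5276 and 8530.1 in MYC-positive arrays. The groups were apart, with the lowest MYC-positive array above the highest MYC-negative one, and the difference was 0.73 (SE 0.13, adjusted p = 0.00669). Psmb6, the caspase-like site, had signals of 4074, 5058, 4057 and 5334 in MYC-negative and 6832, 6704, 6158 and 9716 in MYC-positive arrays. Here too the groups did not overlap, and the difference was 0.65 (SE 0.13, adjusted p = 0.00946). Psmb7, the trypsin-like site, had signals of 6169.6, 7790.1, 7562 and 12820.00 in MYC-negative and 8870.3, 9427, 12198 and 13424 in MYC-positive arrays. Every pair was higher, but the pair 4 arrays were both high and nearly level, and the difference of 0.39 (SE 0.13, adjusted p = 0.0695) did not pass. Without pair 4 it was 0.50 (adjusted p = 0.0127).

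The immunoproteasome genes gave 0 calls of 4, against 11.2% of all genes called higher, so the count is no result about them. In limma's test 1 of the 4 had an unadjusted p under 0.05. Psmb8, which takes the place of Psmb5, had signals of 3518, 4202, 3297 and 3585 in MYC-negative and 4931, 4363, 3619.5 and 5459.6 in MYC-positive arrays. The MYC-positive arrays of pairs 1, 2 and 4 were above every MYC-negative array and that of pair 3 was not, and the difference was 0.32 (95% interval -0.01 to 0.66, adjusted p = 0.154). Psmb9, which takes the place of Psmb6, had signals of 3967, 4386, 4076 and 4229 in MYC-negative and 4566, 4112, 3431 and 6156 in MYC-positive arrays. It was lower in pairs 2 and 3 and higher in pairs 1 and 4, and the groups overlapped, with a difference of 0.10 (95% interval -0.26 to 0.46, adjusted p = 0.696). Psmb10, which takes the place of Psmb7, had signals of 3190.4, 3695, 3315 and 2362 in MYC-negative and 3687, 3711, 2689.6 and 4999.5 in MYC-positive arrays. The pairs ran from -0.30 to 1.08, and the difference was 0.25 (95% interval -0.24 to 0.74, adjusted p = 0.451). Psme1, a subunit of the interferon-inducible activator PA28, had signals of 6893, 8394, 6838 and 7704 in MYC-negative and 9379.97, 8854, 8938 and 11699.6 in MYC-positive arrays. All MYC-positive arrays were above all MYC-negative arrays, and the difference was 0.38 (95% interval 0.09 to 0.67, adjusted p = 0.0645). It passed when the probe sets of each gene were averaged (adjusted p = 0.0463) and after median centring (adjusted p = 0.00706), and over all 13 alternatives its adjusted p ran from 0.00706 to 0.251. Psme1 has 1 probe set, so the averaging left its own difference unchanged. The intervals of Psmb8, Psmb10 and Psme1 include the core median of 0.52 and that of Psmb9 ends at 0.46, so a failed test does not show that these genes stayed level. Psmb9 turned to -0.02 after quantile normalization and to -0.05 without pair 4, and Psmb10 to -0.03 without pair 4. Psmb8 turned to -0.36 (adjusted p = 0.521) when averaged over its probe sets, where a dim one of mean signal 40.3 and a difference of -1.05 enters.

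**Figure D2:**
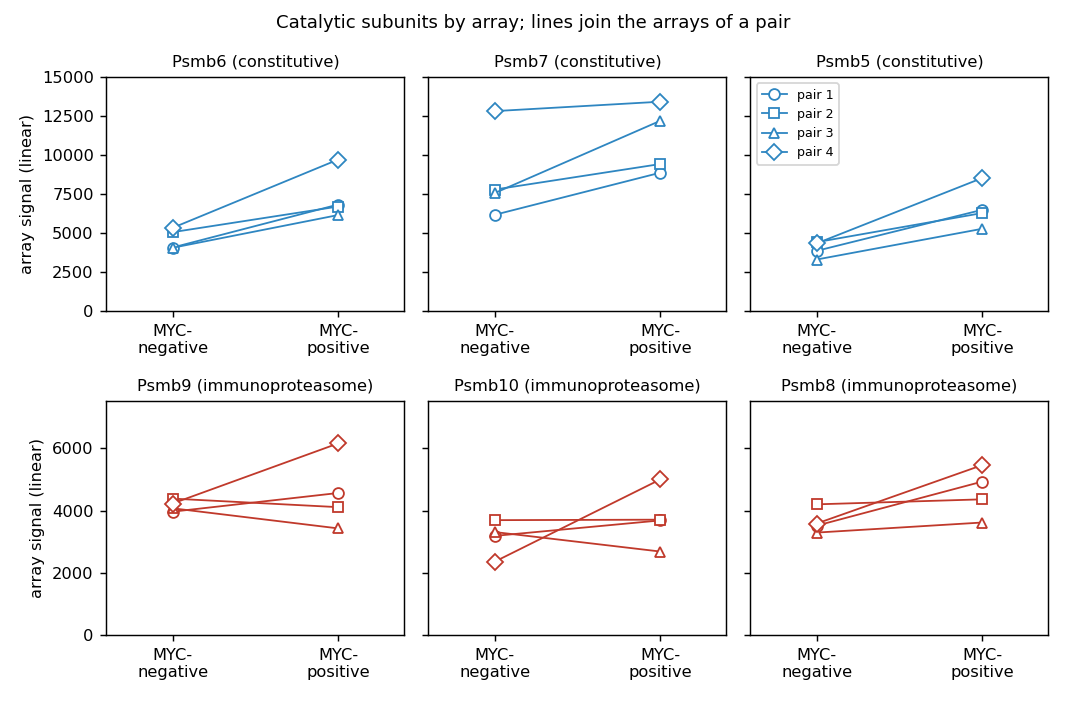
Array signal on a linear scale (vertical axis) of the constitutive catalytic subunits Psmb6, Psmb7 and Psmb5 (top) and of their immunoproteasome counterparts Psmb9, Psmb10 and Psmb8 (bottom) in MYC-negative and MYC-positive arrays, with lines joining the arrays of a pair and an axis that reaches higher in the top row. All lines rise for the constitutive subunits, from 0.07 to 0.98 on the log2 scale, while Psmb9 falls in pairs 2 and 3 and Psmb10 in pair 3.

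Each constitutive catalytic subunit was set against its counterpart within the pair. The difference of Psmb5 exceeded that of Psmb8 by 0.26, 0.45, 0.54 and 0.37 in pairs 1 to 4 (mean 0.41 ± 0.12 SD, n = 4 pairs). For Psmb6 against Psmb9 the excess was 0.54, 0.50, 0.85 and 0.32 (mean 0.55 ± 0.22 SD, n = 4 pairs). Both constitutive genes thus had the larger difference in every pair. For Psmb7 against Psmb10 the excess was 0.32, 0.27 and 0.99 in pairs 1 to 3 but -1.02 in pair 4 (mean 0.14 ± 0.84 SD, n = 4 pairs), so its direction was not shared by all pairs. The median of the 14 core genes exceeded that of the immunoproteasome genes by 0.36, 0.39 and 0.63 in pairs 1 to 3 and fell short in pair 4, at -0.09 (mean 0.32 ± 0.30 SD, n = 4 pairs). No test of these gaps was run. An exact sign-flip test was not run either, and with 4 pairs it allows no p below 0.125.

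The 9 genes of the 19S base tested gave 7 calls (77.8%), against 11.2% of all genes called higher, with differences from 0.31 to 0.78. Psmc1 to Psmc6 are the ATPases that unfold the substrate. Among them Psmc5 had the largest difference in the base, with signals of 1258, 1512, 1563 and 1711 in MYC-negative and 2334, 2739, 2281 and 3000.1 in MYC-positive arrays. The groups did not overlap, the pairs ran from 0.55 to 0.89, and the difference was 0.78 (SE 0.15, adjusted p = 0.00878). Psmc1, Psmc6, Psmc3 and Psmc4 were called at 0.72, 0.46, 0.43 and 0.40, with Psmc1 at 0.45 without pair 4. These calls were lost in 5, 7, 6 and 7 of the 13 alternatives, in that order. Psmc2 gave 0.39 (SE 0.13, adjusted p = 0.0564) with all MYC-positive arrays above. The scaffold subunits Psmd1 and Psmd2 were called at 0.74 and 0.59, and neither overlapped. Psmd4, a ubiquitin receptor, had the smallest difference, with signals of 2797, 2946, 2534 and 2022 in MYC-negative and 3288, 3461, 2231 and 3978 in MYC-positive arrays. It was lower in the MYC-positive array of pair 3 and much higher in pair 4, and its difference was 0.31 (95% interval -0.13 to 0.75, adjusted p = 0.284), or 0.09 (adjusted p = 0.683) without pair 4.

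The 8 lid genes gave 4 calls (50%), against 11.2% of all genes called higher, and the widest spread, from 0.34 to 1.42. Psmd7, which pairs with the deubiquitinase Psmd14, had the largest difference of all members. Its signal was 666, 715, 629.5 and 589 in MYC-negative and 2072, 2011, 1549.96 and 1384 in MYC-positive arrays. The groups were far apart, every pair rose by 1.23 or more, and the difference was 1.42 (SE 0.18, adjusted p = 0.0015). Averaged with 2 dimmer probe sets of the gene, whose mean signals were 97.7 and 56.3 and whose own differences were 0.41 and -0.70, it was 0.38 (adjusted p = 0.327). Psmd3, a structural lid subunit, gave 1.29 (SE 0.31, adjusted p = 0.0178) from signals of 909, 1042, 709 and 561 in MYC-negative and 2723, 1809.95, 924 and 2951 in MYC-positive arrays. The MYC-positive array of pair 3 lay below the MYC-negative array of pair 2. Its pairs ran from 0.38 in pair 3 to 2.40 in pair 4. Psmd12 and Psmd6 were called at 0.77 and 0.54, and lost the call in 2 and 6 of the 13 alternatives. Psmd11, which clamps the lid to the core and to the ATPases, had the smallest difference, with signals of 3602, 4343, 4486 and 4986 in MYC-negative and 5349, 5496, 6277 and 4869.7 in MYC-positive arrays. It was higher in pairs 1 to 3 and level in pair 4, and gave 0.34 (95% interval 0.01 to 0.67, adjusted p = 0.125), or 0.46 (adjusted p = 0.0171) without pair 4. Psmd14, Psmd13 and Psmd8 gave 0.40, 0.51 and 0.37 and did not pass. Without pair 4 Psmd14 passed at 0.55 (adjusted p = 0.00800), while Psmd13 fell back to 0.25 (adjusted p = 0.298) and Psmd8 to 0.01 (adjusted p = 0.967).

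**Figure D3:**
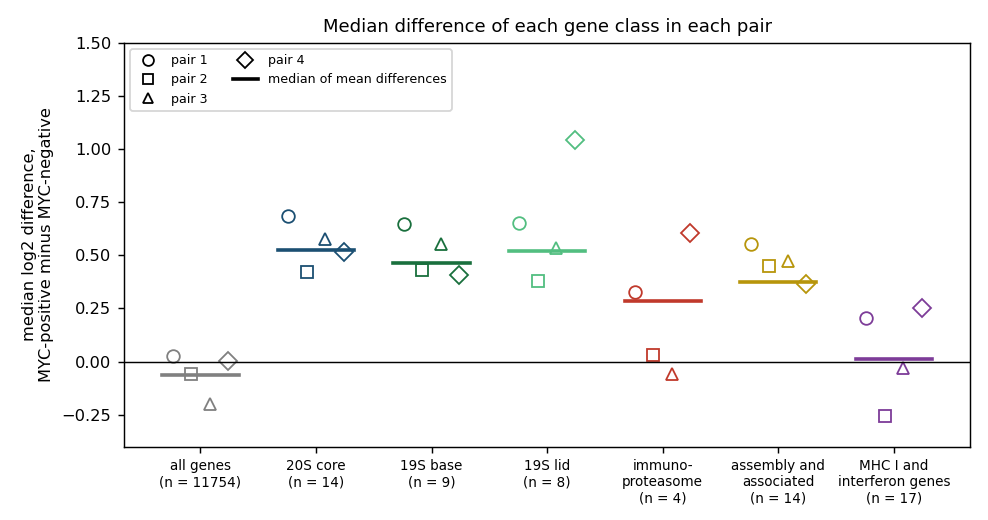
Median log2 difference between MYC-positive and MYC-negative arrays (vertical axis) of each class of genes, with 1 point per pair and a bar at the median of the genes' mean differences. Core, base and lid medians are above 0 in all 4 pairs, the immunoproteasome median runs from -0.06 in pair 3 to 0.60 in pair 4, and the median of all genes is -0.06.

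Over all pairs the medians of core, base and lid were alike. They were 0.52 for the 14 core genes, 0.46 for the base and 0.52 for the lid, against 0.28 for the immunoproteasome genes. The base assembly chaperones had a median of 0.48, with 0.19, 0.31, -0.17 and 0.56 by pair, and the other activators one of 0.41. The core and the joined base and lid differed by 0.04, 0.01, 0.02 and -0.09 in pairs 1 to 4 (mean -0.01 ± 0.06 SD, n = 4 pairs). The lid median of pair 4, 1.04, stood above its 0.65, 0.38 and 0.53 in pairs 1 to 3. The immunoproteasome median was 0.33, 0.03, -0.06 and 0.60 by pair, and was 0.10 without pair 4. In pair 4 the core and base medians, 0.52 and 0.41, were below that of the immunoproteasome.

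The 3 chaperones that assemble the base gave 1 call, against 11.2% of all genes called higher, and with 3 genes the count is no result about the class. Psmd5 was called higher, with signals of 1189, 1512, 1319 and 1873 in MYC-negative and 2092, 1879, 2216 and 2753 in MYC-positive arrays. All MYC-positive arrays were above all MYC-negative ones, although that of pair 2 was only just above the pair 4 MYC-negative array. The difference was 0.61 (SE 0.16, adjusted p = 0.0274). Psmd10, also named gankyrin, had signals of 906, 943, 1023 and 1242 in MYC-negative and 693, 773, 894 and 787 in MYC-positive arrays. It was the only tested member with every MYC-positive array below every MYC-negative array, its difference was -0.38 (95% interval -0.80 to 0.04, adjusted p = 0.175), and its sign turned, to 0.06, after median centring. Psmd9 gave 0.48 (SE 0.29, adjusted p = 0.275) with pairs from -0.17 to 1.54, 0.12 without pair 4 and -0.11 when averaged over its probe sets.

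The other activators of the core split. Psme3 encodes the nuclear activator PA28-gamma, which supports degradation without ubiquitin. Its signal was 2625, 2858, 2467 and 2258 in MYC-negative and 4263, 4737, 4446 and 5468 in MYC-positive arrays. The lowest MYC-positive array was well above the highest MYC-negative array, every pair rose by 0.70 or more, and the difference was 0.89 (SE 0.15, adjusted p = 0.00481). It was called under all 13 alternatives. Psme4, the large activator PA200, had signals of 2489, 2543, 1588 and 2355 in MYC-negative and 2032, 2772, 2578 and 1334 in MYC-positive arrays. The pairs pointed both ways, and the difference was -0.07 (95% interval -0.60 to 0.46, adjusted p = 0.862), with 0.37 after median centring, 0.18 without pair 4 and -0.33 without pair 3. Of the look-alike symbols, Psmc3ip (a partner in meiotic recombination) was higher at 0.75 (SE 0.14, adjusted p = 0.00743) and Psme3ip1 gave 0.32 (SE 0.20, adjusted p = 0.295).

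Genes that build and attach to the proteasome were led by the chaperones of the alpha ring. Of 14 tested, 6 were called higher (42.9%) and 0 lower, against 11.2% and 11.5% of all genes, with a median of 0.37. The counts without adjustment were also 6 and 0, against 1996 and 2257 of the 11754 genes. Psmg1 and Psmg2 form the dimer on which the alpha ring is assembled. Psmg1 signal was 671, 763, 803 and 829 in MYC-negative and 2101, 2261, 2428 and 2183 in MYC-positive arrays, and Psmg2 signal 1332, 1267, 1669 and 1269.6 and 3086, 2951, 2845 and 3351. Both rose in every pair with no overlap, by 1.55 (SE 0.16, adjusted p = 0.000877) for Psmg1 and 1.15 (SE 0.16, adjusted p = 0.00254) for Psmg2. Psmg3 and Psmg4, their second dimer, were also called and without overlap, at 1.03 and 0.87, and are named after their values were seen, as are Uchl5 (0.63, a deubiquitinase of the base) and Txnl1 (0.46). Psmg1 was called under all 13 alternatives, and Psmg2 in all but the mean over its probe sets, where it gave 0.60 (adjusted p = 0.0641). In that setting the calls of Psmg3 (0.54, adjusted p = 0.242), Uchl5 (0.52, adjusted p = 0.177) and Txnl1 (0.43, adjusted p = 0.101) were lost as well. Pomp, which guides the beta subunits and matures the core, gave 0.32 (95% interval -0.00 to 0.64, adjusted p = 0.141), and the inhibitor Psmf1 gave 0.10 (95% interval -0.45 to 0.66, adjusted p = 0.801), or -0.36 when averaged over its probe sets. The calls of Psmg3, Psmg4, Uchl5 and Txnl1 were lost without pair 1 and without pair 2, with adjusted p-values up to 0.201. Adrm1 was not analysed here.

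The route that replenishes proteasome genes did not move as 1 group. Of 11 tested genes of this route and of the ubiquitin shuttles, 3 were higher (27.3%) and 1 lower, against 11.2% and 11.5% of all genes, with a median of 0.26. Nfe2l1, the gene of NRF1, had signals of 1599.5, 1727, 1152 and 652 in MYC-negative and 1409.7, 1673, 804 and 1205 in MYC-positive arrays. The groups overlapped, and the difference was 0.03 (95% interval -0.51 to 0.58, adjusted p = 0.937). Ngly1, which removes sugars from NRF1 so that it can act, was lower at -0.67 (SE 0.19, adjusted p = 0.0333), with all MYC-positive arrays below. That call was lost after quantile normalization (adjusted p = 0.0663) and after median centring, where the difference was -0.23. The shuttle Ubqln4 was higher at 0.71 (SE 0.16, adjusted p = 0.0137) and the segregase Vcp at 0.57 (SE 0.16, adjusted p = 0.0361), while Vcp averaged over its probe sets gave -0.23 (adjusted p = 0.348). The remaining called gene, named after its value was seen, was Rad23b at 0.51. The calls of Ngly1, Ubqln4, Vcp and Rad23b were lost without pair 1 and without pair 2, with adjusted p-values up to 0.189. Of ubiquitin genes and their E1 enzymes only Uba6 was tested, at 0.07 (SE 0.22, adjusted p = 0.856).

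The genes of MHC class I loading and of the interferon response, which often accompany the immunoproteasome, gave 2 calls of 17 higher (11.8%) and 0 lower (4 and 3 without adjustment), with a median of 0.01. The share of higher calls is that of all genes, 11.2%, so it is no result about this list. Both called genes, Pdia3 (0.67 (SE 0.15, adjusted p = 0.0143)) and Canx (0.40 (SE 0.11, adjusted p = 0.0345)), are chaperones of the endoplasmic reticulum that serve many proteins. Averaged over its probe sets, Pdia3 gave 0.17 (adjusted p = 0.752), and neither passed without pair 1 or without pair 2 (adjusted p from 0.0754 to 0.161). Tap1, the peptide transporter whose gene adjoins Psmb9, had signals of 2297, 2161, 1774 and 1156 in MYC-negative and 2065, 1237, 842 and 1719.7 in MYC-positive arrays. It was lower in pairs 1 to 3 and higher in pair 4, with a difference of -0.37 (95% interval -0.96 to 0.23, adjusted p = 0.358), and without pair 4 it was lower at -0.68 (adjusted p = 0.0104). B2m, the light chain of MHC class I, gave 0.14 (95% interval -0.15 to 0.42, adjusted p = 0.476) and turned to -0.05 after quantile normalization. Irf1, the interferon-gamma-induced factor that drives Psmb9 and Tap1, gave -0.13 (95% interval -0.56 to 0.30, adjusted p = 0.66). The largest differences of the list, named after their values were seen, were those of Irf7 (-1.05 (SE 0.35, adjusted p = 0.0601)), lower in all 4 pairs and called under 3 of the 13 alternatives, and Ifit3 (-0.95 (SE 0.41, adjusted p = 0.129)), and neither passed.

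In each group 1 array had the highest 3′ to 5′ ratio of the beta-actin control, that of pair 4 among the MYC-negative and that of pair 3 among the MYC-positive arrays. The ratio was 2.24 on both, against 1.43 to 1.74 on the other MYC-negative and 1.81 to 1.93 on the other MYC-positive arrays. The Gapdh ratio of the MYC-positive array of pair 3 was also the highest of its group, at 1.47 against 1.35 to 1.41, and that of the MYC-negative array of pair 4, 1.54, was below the 1.57 of pair 2. Of the 40 proteasome genes, 8 were lower on both by more than 0.25 (log2) than the mean of the other 3 arrays of the group: Psmb2, Psmb10, Psmc1, Psmd3, Psmd4, Psmd8, Psmd9 and Psmd13. That is 20% of them against 25.4% of all genes tested, so the share is not higher than the background, and 3 (7.5%) were higher on both against 12.0%. By the way they were picked, these genes have their smallest difference in pair 3 and their largest in pair 4. A fit without these arrays and without pairs called 26 of the 40 higher, against 11.0% of all genes, with 21 of the 23 among them. In it 0 immunoproteasome genes were called, and the core median was 0.67. The threshold and this fit were chosen after the values were seen, and the part of RNA quality in these differences was not tested. By median signal a different array was the lowest, the MYC-positive array of pair 4, at 28.2 against 36.8 to 39.7 on the other MYC-positive arrays.

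**Figure D4:**
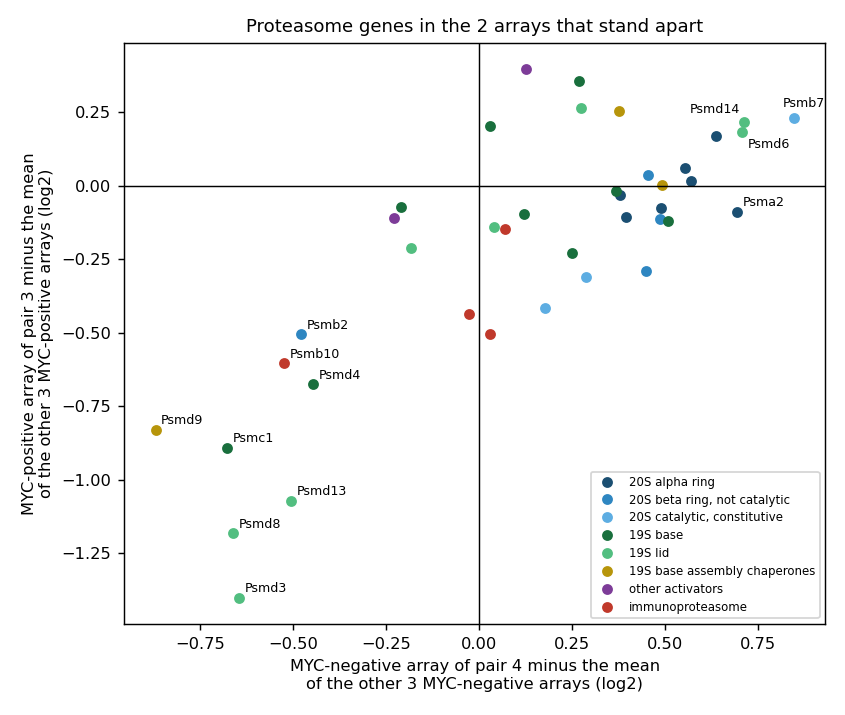
Deviation of each of the 40 proteasome genes on the MYC-negative array of pair 4 (horizontal axis) and on the MYC-positive array of pair 3 (vertical axis) from the mean of the other 3 arrays of the group, in log2 units. The lower left holds the 8 genes lower by more than 0.25 on both arrays.

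Other probe sets of the members were read as well. Of 41 further probe sets that passed the filter, in 21 proteasome genes, 27 had the sign of the one used and 14 the opposite sign. All 15 with a mean signal of at least 1000 had the same sign, and of 26 dimmer ones 12 did, a threshold set after the values were seen. With the mean over all kept probe sets of each gene in place of the brightest, 19 proteasome genes were called higher and 0 lower. Of all genes 9.93% were called higher in that setting. Calls were lost by Psma3, Psma5, Psma6, Psmb1, Psmd2 and Psmd7 and gained by Psmb2 and Psme1. Psmb2 and Psme1 have 1 probe set each, so their differences did not change and no further probe set stands behind the gained calls.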

How the data were processed

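MAS5 is the tool that the submitters' processing notes name for these arrays, with its version and scaling target not given in the sources used. The authors deposited 1 signal intensity per probe set and array, linear and not logged. After trimming 2% of the values at each end the array means ran from 497 to 498, which shows scaling to a common mean before deposit. Detection calls were not analysed here, and having 4 arrays per group limits the precision.

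Of 45056 probe sets, 19 were controls, 34958 were annotated to 1 gene, 932 to several and 9160 to none here. A RefSeq table, matched by gene identifier, changed 0 symbols. Signals were floored at 1 before log2. The filter kept probe sets whose mean log2 value exceeded the 40th percentile (a signal of 18.7), and the brightest then stood for each of 11754 genes. The model of limma 3.58.1 (R 4.3.3) had terms for group and pair (lmFit, eBayes with an intensity trend), leaving 3 residual degrees of freedom, and was tested on simulated data. Tests were 2-sided.

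Partners are stated in the descriptions of the samples, and the deviations of paired arrays from their group means correlated at 0.26, 0.17, 0.088 and 0.12. Replicate numbers in the titles do not mark pairs. The proteasome genes and gene lists were chosen with earlier results of these data known. Named by rule were Myc, all members, with values per array for the catalytic subunits, Psme genes and the extremes of each class, the 2 largest called differences of each other list in each direction, and Pomp, Psmg1, Psmg2, Psmf1, Adrm1, Nfe2l1, Tap1, B2m and Irf1. A further gene of the rule is not reported here. Alternatives changed the scaling, the low-signal offset, the filter, the probe set rule, the block, the variance model and the pairs.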

Additional observations from a re-analysis of the deposited data

Results flagged for a closer look

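Each group of 4 arrays was screened for a single array far from the other 3, and 5 of 84 member groups met the limit (Dixon's 95% critical value for the gap to the nearest array over the group's range). Chance gives about 1 in 20. Psma2 was 8578 on the MYC-positive array of pair 4, against 6753 to 6911 on the other MYC-positive arrays. On the same array Psma6 was 12168, against 8831 to 9249, and Psmc3 was 10249.5, against 7734 to 7874. Psmc1 was 2639 on the MYC-positive array of pair 3, against 4740.4 to 5219. Psme4 was 1588 on the MYC-negative array of pair 3, against 2355 to 2543.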

How the results depend on the processing

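The count of 23 proteasome genes called higher changed with the setting, and so did the share of all genes called higher, given in brackets. As reported that share was 11.2%. The count became 37 after median centring (27.3%), 15 with no filter on dim probe sets (6.49%) and 13 without the pair as a replicate block (8.98%). It was 4 without an intensity trend in the variance (6.26%), and 2 to 28 when pairs were left out in turn (3.43% to 14.8%). It was 20 after quantile normalization (15.2%) and 24 with log2(signal + 16) (11.9%). It was 25 with the filter at the 60th percentile (15.1%) and 19 with the mean over probe sets (9.93%). It was 26 without the pair as a block and without the 2 arrays of highest beta-actin ratio (11.0%), a choice made after seeing the data. No member was called lower in any of these settings. The immunoproteasome calls rose from 0 to 3 after median centring and to 1 with the mean over probe sets (Psme1, which has 1 probe set), and stayed at 0 when pairs were left out. The core median was 0.38 after quantile normalization, 0.97 after median centring and 0.67 without the 2 arrays. After median centring the base median was 0.91, the lid median 0.96 and the immunoproteasome median 0.72. Vcp was -0.23 with the mean over probe sets, where the other probe sets enter by construction. The cause of the other shifts was not tested. Signals of 8 arrays in 4 pairs, with 3 residual degrees of freedom, leave differences near 0.4 at the edge of the threshold, and the probe sets of Psma8 and Psmb11 were too dim to test.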
